A study of Homo sapiens with 27 samples.

Results

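The genes described here are 9 of the 23228 gene symbols in the deposited table: the nuclear receptors NR3C1, NR3C2, ESR1, ESR2 and PGR, the coactivators NCOA1, NCOA2 and NCOA3, and the corepressor NCOR1. They were taken by symbol, and each symbol had a single row. The RNA came from the human prostate cancer lines DU145-DR, ARCaPM-DR and 22Rv1-DR, which the labels place under Ch-CRPC (chemotherapy-resistant, castration-resistant prostate cancer). In every line a control hairpin was set beside shGATA2a and shGATA2b, hairpin RNAs aimed at GATA2, a zinc finger transcription factor. That gives 9 groups of 3 libraries and 27 libraries in all, and the comparison asks what loss of GATA2 does to transcript levels in these lines. All groups share the resistant background, and the hairpin is the only difference the labels give within a line. The labels do not say whether a line is a clone, which vector carried the hairpins, how long they acted, or whether replicates were cultured apart. The p-values therefore describe how libraries of a group vary, and part or all of that variation may be technical.

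Steroid receptors are transcription factors that bind a hormone and then DNA. NR3C1 is the glucocorticoid receptor, NR3C2 the mineralocorticoid receptor, PGR the progesterone receptor, and ESR1 and ESR2 are the estrogen receptors alpha and beta. Once a ligand is bound, the receptor recruits the p160 coactivators NCOA1, NCOA2 and NCOA3, which bring in histone acetyltransferases, while NCOR1 is a scaffold that brings histone deacetylase to repressed genes. NCOA3 was first described as a gene amplified in breast cancer.

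Levels below are the deposited normalised read counts, which carry no correction for transcript length, so they are compared between libraries for a gene and never between genes. Library depth was 3.44 to 19.40 M recovered reads (median 12.87 M), and the shallowest library was ARCaPM-DR shGATA2a replicate 3. GATA2 itself was lower in every knockdown library than in every control of its line, with log2 differences of -1.85 in DU145-DR, -1.71 in 22Rv1-DR and -2.56 for ARCaPM-DR (limma, adjusted p = 5.54e-05, 0.0256 and 8.78e-05). In 22Rv1-DR neither hairpin alone passed for GATA2 (adjusted p = 0.075 for shGATA2a and 0.0863 for shGATA2b). The table holds 12 values of GATA2 that are not a whole number of reads, 5 in DU145-DR and 7 in 22Rv1-DR, and none (0) for any of the 9 members. KLK3, the gene of prostate-specific antigen and a luminal prostate marker, averaged 104.6 ± 14.6 (SD, n = 3) in 22Rv1-DR controls and was at 0 in every library of DU145-DR and ARCaPM-DR. Of 8 luminal markers, 4 reached a control mean of 10 in DU145-DR, while ARCaPM-DR had 5 and 22Rv1-DR all 8. Among these, KRT8 averaged 4950 ± 1424 (SD, n = 3) in DU145-DR controls and 5834 ± 1480 for ARCaPM-DR controls. Of 3 mesenchymal markers, 2 reached a control mean of 10 in each line. VIM averaged 13011 ± 528 (SD, n = 3) in DU145-DR controls, 47215 ± 7786 for ARCaPM-DR and 89.9 ± 49.3 for 22Rv1-DR. ZEB1 had the same order, at 880.5 ± 58.8 (SD, n = 3), 1694 ± 75.3 and 5.24 ± 4.22. CDH2 went the other way, at 0.71 ± 1.23 (SD, n = 3) in DU145-DR controls and 73.0 ± 8.43 in 22Rv1-DR controls. The basal markers KRT5, KRT14 and TP63 summed to at most 6.2 in any library, and the leukocyte gene PTPRC averaged at most 1.70 in controls. Of 7 markers of fibroblasts, vessels and leukocytes, COL1A1 and CD68 had a control mean of 10 or more in each line. Their list summed to 554.4 to 783.4 in controls and 381.6 to 538.1 after knockdown in DU145-DR, and to 2470.9 to 2898.5 and 1806.2 to 3381.5 in ARCaPM-DR. In 22Rv1-DR it summed to 768.0 to 4026.2 in controls and 779.4 to 1612.0 after knockdown, and its part in the results was not tested. By gene, CD68 fell in ARCaPM-DR from 1034 ± 267 (SD, n = 3) to 337.4 ± 191.2 (SD, n = 6), with no overlap (limma adjusted p = 0.0038), and COL1A1 was at 1649 ± 298 and 2249 ± 582 there. In DU145-DR COL1A1 fell from 157.3 ± 18.6 (SD, n = 3) to 95.7 ± 23.5 (SD, n = 6, limma adjusted p = 0.0153). The part of either gene in the results of these lines was not tested. Among replicates, 22Rv1-DR Control replicate 3 stood apart from the other controls of its line (chi-square per degree of freedom 103.7 and 99.8, against at most 47.6 in any pair without it), and it held the highest COL1A1 value, 3965, so results that rest on it are given without it too. In bulk samples fewer cells of a type and less RNA per cell cannot be told apart.

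The promoter windows of the 3 members that passed the knockdown test in at least 1 line are printed here, because the factor removed is a DNA-binding protein whose family recognises GATA. They are the 250 bases before a RefSeq transcript start, GRCh38.p14, which is not the hg19 build the submitters name and is used for sequence only. Capitals mark GGGCGG on either strand, a motif of the Sp family, and would also mark the 4 GATA sequences searched (AGATAA and AGATAG, then TGATAA and TGATAG) and AGAACA, of which these windows hold 0.
NCOA3, chr20:47501637-47501886, plus strand: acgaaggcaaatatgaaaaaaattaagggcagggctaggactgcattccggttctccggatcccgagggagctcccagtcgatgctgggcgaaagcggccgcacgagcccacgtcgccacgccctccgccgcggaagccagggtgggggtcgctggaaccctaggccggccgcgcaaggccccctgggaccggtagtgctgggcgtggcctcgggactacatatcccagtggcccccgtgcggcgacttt
NCOA1, chr2:24491004-24491253, plus strand: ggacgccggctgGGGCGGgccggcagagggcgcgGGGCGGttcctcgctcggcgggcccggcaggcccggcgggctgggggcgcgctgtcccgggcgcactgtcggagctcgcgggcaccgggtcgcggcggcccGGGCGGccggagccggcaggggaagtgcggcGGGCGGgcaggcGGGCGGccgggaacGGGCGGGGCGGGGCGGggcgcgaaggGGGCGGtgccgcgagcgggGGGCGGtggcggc
NR3C1, chr5:143405356-143405605, minus strand: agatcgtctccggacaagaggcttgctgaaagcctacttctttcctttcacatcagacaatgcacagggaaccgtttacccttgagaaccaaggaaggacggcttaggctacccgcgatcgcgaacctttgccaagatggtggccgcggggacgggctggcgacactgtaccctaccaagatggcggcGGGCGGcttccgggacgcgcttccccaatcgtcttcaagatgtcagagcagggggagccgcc
The windows of NCOA1 and NR3C1 were picked from 3 and 7 windows of those genes: the first listed for NCOA1, and for NR3C1 the nearest to the first listed that overlaps no exon of these genes in GENCODE v29. NCOA3 has 1 window. In all 34796 windows of the table, 22.4% held at least 1 of the 4 GATA sequences, 12.4% held AGAACA, an arm of the palindromic site of NR3C1, and 42.6% held GGGCGG, counting both strands. Of the 31 windows of the 8 members matched by symbol, 4 held a GATA sequence: 1 each of NR3C2, ESR1, PGR and NCOA1. For NR3C1 and NCOA3 these letters were in 0 of 7 and 0 of 1 windows. A match or its absence in a window describes these letters only.

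NR3C1, the glucocorticoid receptor, differed between all lines and rose on GATA2 knockdown in ARCaPM-DR. In controls the mean was 1770 ± 74.6 (SD, n = 3) in DU145-DR, 689.5 ± 28.5 in 22Rv1-DR and 216.8 ± 17.96 for ARCaPM-DR. The order DU145-DR, 22Rv1-DR, ARCaPM-DR held at both steps, with log2 differences of -1.36 (SE 0.16) from DU145-DR to 22Rv1-DR and -1.67 (SE 0.16) from 22Rv1-DR to ARCaPM-DR (limma on all 27 libraries, adjusted p = 4.50e-08 and 1.09e-09). No control library of one line overlapped those of the next, in comparisons that called 70.5% and 70.3% of all genes.

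In ARCaPM-DR the NR3C1 values were 204.9, 237.4 and 208.0 in the controls, 475.3, 430.0 and 544.1 with shGATA2a, and 326.9, 358.5 and 382.1 with shGATA2b. All 6 knockdown libraries lay above all 3 controls, as they did for 11% of the genes tested in this line, and all shGATA2a libraries lay above all shGATA2b libraries. NR3C1 rose by 0.93 on the log2 scale (SE 0.12, limma adjusted p = 0.000868), a 1.91-fold change, and stayed past the threshold under all 16 alternatives run, with adjusted p from 2.06e-06 to 0.00837. Each hairpin alone gave a rise, of 1.15 for shGATA2a (SE 0.14, limma adjusted p = 0.000886) and 0.71 for shGATA2b (SE 0.14, adjusted p = 0.00895). The 2 hairpin comparisons share the same controls. Between the hairpins the difference was -0.44 (SE 0.14, limma adjusted p = 0.24), which did not pass. GATA2 itself changed by -2.19 with shGATA2a and by -2.94 with shGATA2b in this line, so the larger NR3C1 rise came with the smaller GATA2 fall. The hairpin difference for GATA2, -0.75 (SE 0.25, limma adjusted p = 0.257), did not pass either.

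The other lines gave smaller NR3C1 differences. In DU145-DR the controls were 1796, 1686 and 1828, and the knockdown libraries ran from 1608 to 2030, with 5 of 6 above all controls. The log2 difference was 0.13 (SE 0.09, 95% interval -0.06 to 0.32, limma adjusted p = 0.32). In 22Rv1-DR the controls were 707.0, 656.7 and 705.0, and the knockdown libraries ran from 566.3 to 975.7, on either side of them. There the log2 difference was 0.15 (SE 0.19, 95% interval -0.26 to 0.56, limma adjusted p = 0.765).

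The knockdown effect on NR3C1 differed between lines (limma F-test in the joint fit, adjusted p = 0.0128), the only call among the 8 members tested there, against 7% of all genes. The effect in ARCaPM-DR exceeded that in DU145-DR by 0.80 on the log2 scale (SE 0.20, limma adjusted p = 0.0125) and that in 22Rv1-DR by 0.78 (SE 0.20, adjusted p = 0.0256). Over all genes 7.13% differed in the first of these comparisons, 3.39% in the second and 1.09% between 22Rv1-DR and DU145-DR, while the members called were 2, 1 and 0 of 8. Between 22Rv1-DR and DU145-DR it differed by 0.02 (95% interval -0.38 to 0.43), with no call. Without ARCaPM-DR Control replicate 1 the F-test was no longer past the threshold (adjusted p = 0.0542). The difference from 22Rv1-DR was also lost without that library (adjusted p = 0.0784), without ARCaPM-DR Control replicate 3 (0.0664), without 22Rv1-DR Control replicate 1 (0.055) and with edgeR on the recovered reads (0.0612).

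**Figure D1:**
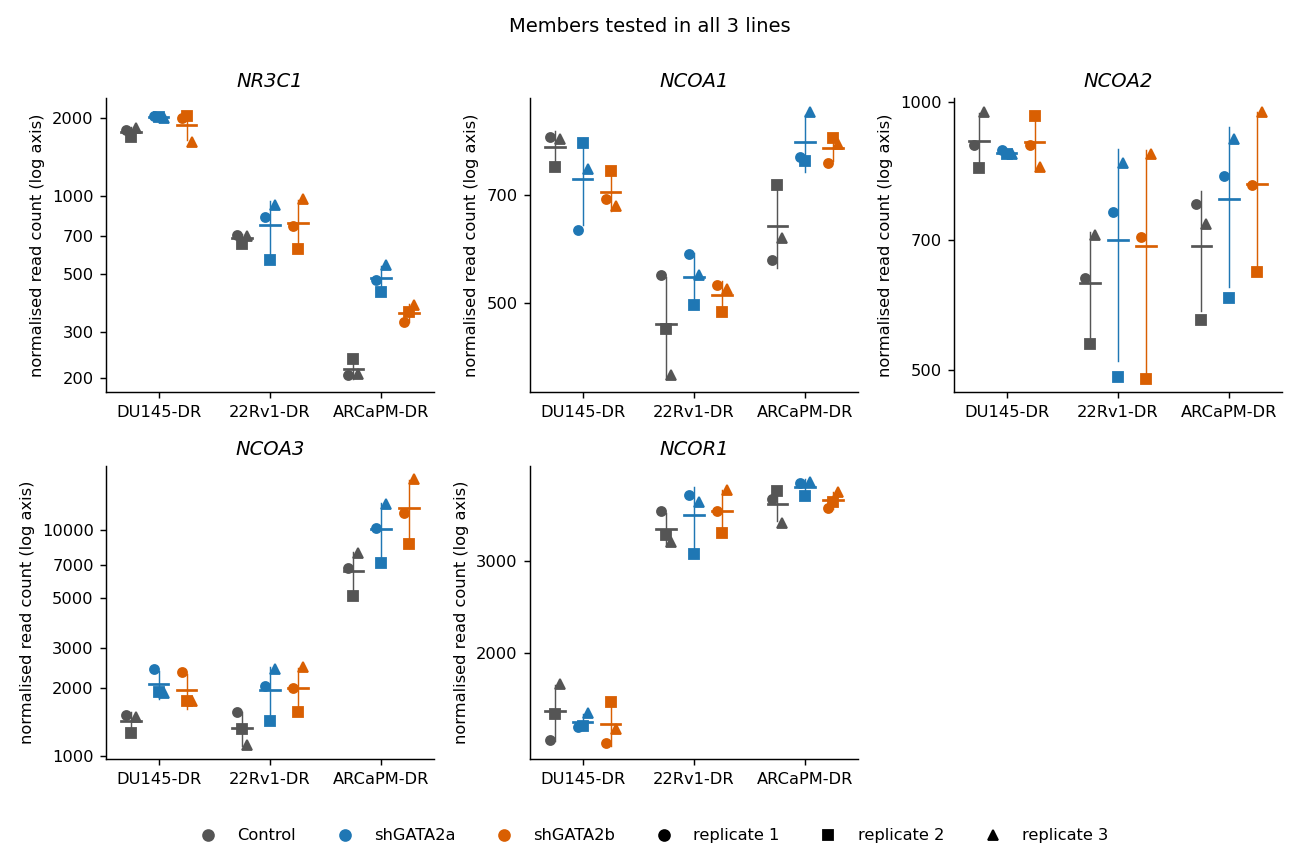
Normalised read count (log axis, a separate range in each panel) of the 5 members tested in all 3 lines, by line on the x axis. Points are libraries, colour is the hairpin, the symbol is the replicate number, and bars are the mean and SD of 3 libraries. NR3C1 in ARCaPM-DR sits at 204.9 to 237.4 in controls and 326.9 to 544.1 after knockdown, and NCOA3 lies at 5109 or above in ARCaPM-DR and at 2460 or below elsewhere.

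NR3C2, the mineralocorticoid receptor, was present at a substantial level in 22Rv1-DR only. The controls there were 383.6, 318.4 and 487.4, against 3.56 to 11.2 in DU145-DR and 1.32 to 5.12 in ARCaPM-DR. It passed the filter on low values in the joint fit through the 22Rv1-DR libraries, so that a difference between lines was built into its passing. The control levels were 5.63 higher on the log2 scale in 22Rv1-DR than in DU145-DR (SE 0.46, limma adjusted p = 6.11e-11), and ARCaPM-DR differed from 22Rv1-DR by -6.72 (SE 0.46, adjusted p = 1.66e-12). ARCaPM-DR differed from DU145-DR by -1.09 (limma adjusted p = 0.0443), a difference between 12 and 30 reads summed over 3 libraries each, and edgeR did not call it (adjusted p = 0.0768). Leaving out DU145-DR Control replicate 1 or 3, ARCaPM-DR Control replicate 1 or 2, or replicate 1 of either knockdown arm of 22Rv1-DR also ended that call (adjusted p from 0.0501 to 0.214), as did a pseudocount of 0.1 (0.055) and no filter (0.0609).

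NR3C2 was not called on knockdown in 22Rv1-DR. The shGATA2a libraries were 462.1, 318.4 and 555.6, and the shGATA2b libraries 411.2, 376.0 and 565.5. Replicate 3 was the highest library and replicate 2 the lowest in all 3 arms. Of the 6 knockdown libraries 2 lay above every control. Against the control of the same number the median ratio was 1.15. Replicate 2 with shGATA2a was level with its control at 318.4, and the rest lay above theirs. The share of all genes with this pattern in this line was not counted. The log2 difference was 0.17 (SE 0.21, 95% interval -0.30 to 0.64, limma adjusted p = 0.778).

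PGR, ESR2 and ESR1 were low throughout. PGR was highest in 22Rv1-DR, with controls at 20.6, 13.9 and 22.0 and knockdown libraries from 15.1 to 33.9, which overlapped (log2 difference 0.24, SE 0.33, limma adjusted p = 0.80). DU145-DR controls held 4.28 to 9.78, so that 22Rv1-DR controls were 1.47 higher on the log2 scale (SE 0.41, limma adjusted p = 0.00267), a call that was lost with a pseudocount of 0.1 (adjusted p = 0.0709). Like NR3C2, PGR passed the joint filter through 22Rv1-DR. In ARCaPM-DR the 3 controls held 0 reads, and of the 6 knockdown libraries 1 held 2 reads. With 3 reads allowed per library at 0, PGR was at least 6.64-fold higher in 22Rv1-DR controls and at least 2.26-fold higher in DU145-DR controls than in ARCaPM-DR controls, counting error only.

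ESR2 ran from 2.98 to 17.4 over the 27 libraries with 252 reads in all, and no comparison between lines was called. Its control means were 6.47 ± 1.28 (SD, n = 3) in DU145-DR, 7.98 ± 4.39 in 22Rv1-DR and 8.60 ± 2.94 for ARCaPM-DR, an order in which no neighbours differed beyond their spread. In 22Rv1-DR, where it passed the filter, the log2 difference on knockdown was 0.40 (SE 0.43, limma adjusted p = 0.734). ESR1 had 23 reads in all 27 libraries, was at 0 in 14 of them and reached 3.72 at most, so it did not pass the filter. With no filter it was not called on knockdown in any line (limma adjusted p from 0.627 to 0.877). A library at 0 reads allows up to 3 reads, which is 1.92 to 11.7 normalised counts across the libraries, counting error only. A change of ESR1 within that limit was therefore not detectable at this depth.

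**Figure D2:**
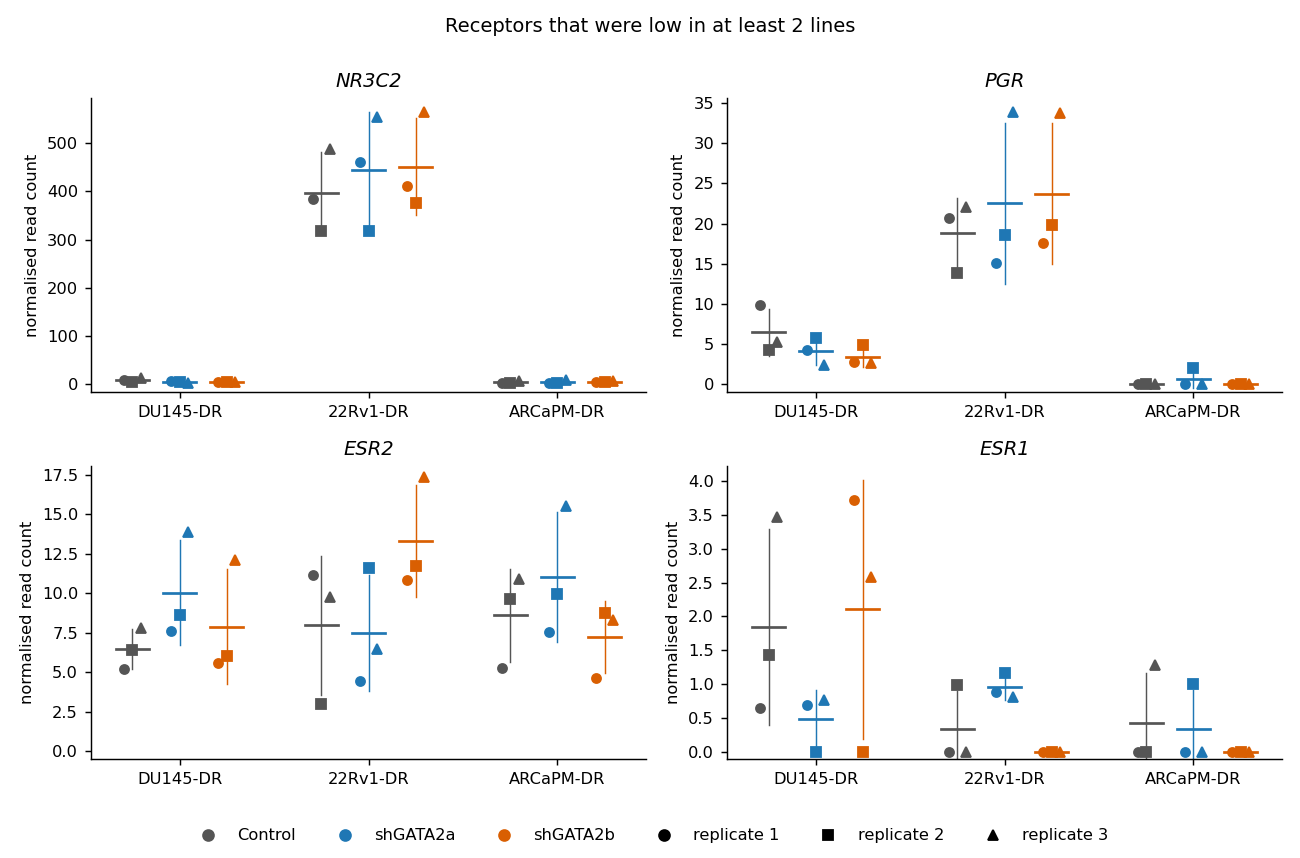
Normalised read count (linear axis, a separate range in each panel) of NR3C2, PGR, ESR2 and ESR1, by line on the x axis. Points are libraries, colour is the hairpin, the symbol is the replicate number, and bars are the mean and SD of 3 libraries. NR3C2 is at 318.4 to 565.5 in 22Rv1-DR and at most 11.2 elsewhere, while ESR1 does not exceed 3.72.

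Among the 3 p160 coactivators, NCOA3 had the largest log2 difference on knockdown in each line. Between lines its difference of ARCaPM-DR from the others was the largest of these genes. In controls it averaged 6598 ± 1404 (SD, n = 3) in ARCaPM-DR, 1421 ± 141 in DU145-DR and 1329 ± 226 in 22Rv1-DR. ARCaPM-DR stood 2.20 above DU145-DR and 2.30 above 22Rv1-DR on the log2 scale (SE 0.24 each, limma adjusted p = 2.69e-08 and 7.09e-09). DU145-DR and 22Rv1-DR did not differ beyond their spread (log2 difference -0.11, SE 0.24, limma adjusted p = 0.715).

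On knockdown NCOA3 rose in DU145-DR. The controls there were 1520, 1260 and 1483, the shGATA2a libraries 2416, 1909 and 1895, and the shGATA2b libraries 2348, 1754 and 1745. No knockdown library overlapped the controls, a pattern that 10% of the genes tested in this line showed in the same direction, and replicate 1 was the highest library of each arm. The log2 difference was 0.49 (SE 0.12, limma adjusted p = 0.0146). It was 0.41 without Control replicate 2, the lowest control, and then did not pass (adjusted p = 0.0929). The call held under 15 of the 16 alternatives, with limma or edgeR adjusted p as low as 5.87e-06. With shGATA2a alone the rise was 0.54 (SE 0.14, limma adjusted p = 0.0197), a call that was lost without shGATA2a replicate 1 (adjusted p = 0.0831) or Control replicate 2 (adjusted p = 0.0882). With shGATA2b alone it was 0.45 (SE 0.14, limma adjusted p = 0.0732), and with the replicate number as a block it passed (adjusted p = 0.000227). The hairpins differed by -0.09 (95% interval -0.39 to 0.20), a difference not called.

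In ARCaPM-DR the NCOA3 difference was larger and more variable. The controls were 6786, 5109 and 7898, the shGATA2a libraries 10224, 7107 and 13028, and the shGATA2b libraries 11866, 8629 and 16774. In each arm replicate 2 was the lowest library and replicate 3 the highest, and 5 of 6 knockdown libraries lay above all controls. The log2 difference was 0.74 (SE 0.24, limma adjusted p = 0.0608), which did not pass. Without shGATA2a replicate 2 it was 0.86 with adjusted p = 0.0177, and without shGATA2b replicate 2 also 0.86 with adjusted p = 0.030. By hairpin the differences were 0.60 for shGATA2a (SE 0.28, limma adjusted p = 0.192) and 0.88 for shGATA2b (SE 0.28, adjusted p = 0.062). The second passed without shGATA2a replicate 2, shGATA2b replicate 2 or shGATA2a replicate 3, with adjusted p between 0.0301 and 0.0449. With the replicate number as a block, the knockdown difference of 0.74 passed (limma adjusted p = 7.21e-07), though pairing by number is not settled in this line.

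In 22Rv1-DR the controls were 1562, 1314 and 1110, the shGATA2a libraries 2040, 1421 and 2420, and the shGATA2b libraries 1982, 1557 and 2460. Of the 6 knockdown libraries 4 lay above all controls. The share of all genes with that many was not counted. All 6 above, a stricter pattern that NCOA3 did not show here, held for 2.9% of the genes tested in this line. The log2 difference was 0.56 (SE 0.20, 95% interval 0.11 to 1.004, limma adjusted p = 0.406), which did not pass, nor did it with the replicate number as a block (adjusted p = 0.145). Control replicate 3, the library that stood apart, was the lowest of these controls, and the difference without it was 0.44 (limma adjusted p = 0.596). Without that library the log2 differences of the other members on knockdown in this line were 0.33 for NR3C2, 0.36 for PGR, 0.61 for ESR2, 0.21 for NCOA2, 0.17 for NR3C1, 0.07 for NCOA1 and 0.06 for NCOR1, and 0 were called.

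Averaged over the 3 lines in the joint fit, NCOA3 rose by 0.60 on the log2 scale (SE 0.12, limma adjusted p = 0.0012) and NR3C1 by 0.41 (SE 0.08, adjusted p = 0.000849). These were 2 of the 8 members tested, 2 higher and 0 lower, where 18.4% of all genes were called, 9.06% higher and 9.31% lower. Both averages stayed past the threshold under all 34 alternatives. The NR3C1 effect differed between lines (limma F-test, adjusted p = 0.0128), at 0.93 in ARCaPM-DR, 0.13 in DU145-DR and 0.15 in 22Rv1-DR. Its average is therefore not the size of an effect common to the lines. A difference of the NCOA3 effect between lines was not called (F-test, limma adjusted p = 0.848), and its pairwise intervals were wide: -0.37 to 0.86 for ARCaPM-DR minus DU145-DR, -0.44 to 0.80 for ARCaPM-DR minus 22Rv1-DR and -0.55 to 0.68 for 22Rv1-DR minus DU145-DR. Each of the 18 knockdown libraries held more NCOA3 than the control with the same number in its line, with ratios of 1.18 to 1.59 in DU145-DR, 1.08 to 2.22 in 22Rv1-DR and 1.39 to 2.12 in ARCaPM-DR. The same held for 296 of 15295 genes, 1.94%, and each control serves 2 of these ratios. In ARCaPM-DR pairing by number is not settled, since same-numbered libraries correlated at a median of 0.583 but at a lowest of 0.0559. There the 6 ratios only follow the numbering. Without regard to numbers, 6 of 6 knockdown libraries lay above all controls in DU145-DR, 4 of 6 did in 22Rv1-DR and 5 of 6 in ARCaPM-DR. The highest ratios in 22Rv1-DR are against Control replicate 3. Without that library the average for NCOA3 was 0.56 (limma adjusted p = 0.00361). For NR3C1 the count was 15 of 18, and for NCOA1 12 of 18.

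**Figure D3:**
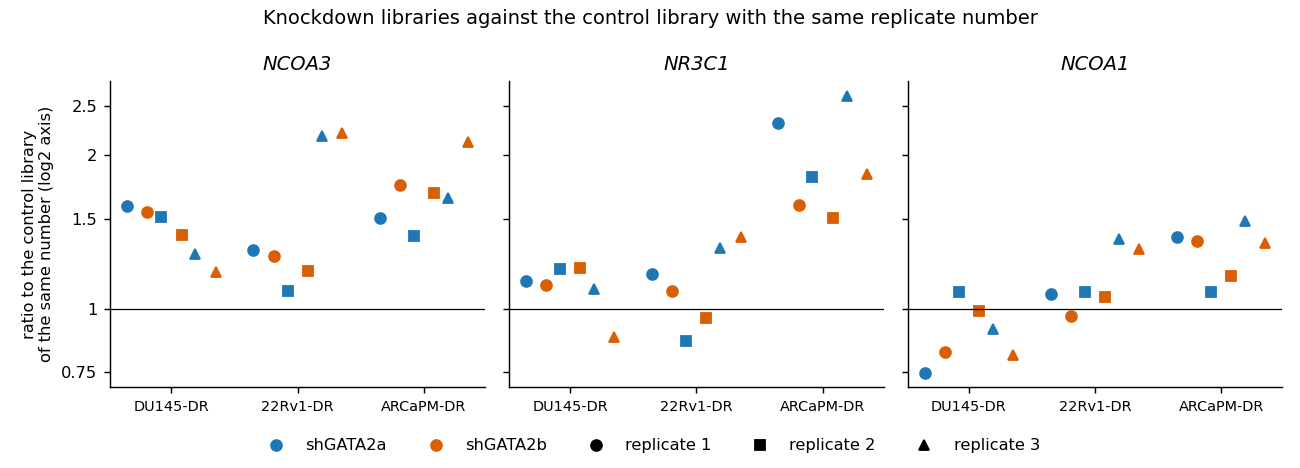
Ratio of the normalised read count in each knockdown library to the control library of the same line and replicate number (log2 axis, line at 1), for NCOA3, NR3C1 and NCOA1, by line on the x axis. Colour is the hairpin and the symbol the replicate number. All 18 NCOA3 ratios are above 1, NR3C1 ratios reach 2.62 in ARCaPM-DR, and NCOA1 ratios lie on both sides of 1 in DU145-DR and 22Rv1-DR.

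NCOA1, another p160 coactivator, rose in ARCaPM-DR by a small margin. The controls were 571.1, 722.8 and 611.7, the shGATA2a libraries 789.7, 779.4 and 909.5, and the shGATA2b libraries 773.9, 837.3 and 821.2. The groups did not overlap, and 11% of all tested genes in this line had all 6 knockdown libraries above all 3 controls. The log2 difference was 0.37 (SE 0.11, limma adjusted p = 0.0436). The call was lost with no filter on low values (adjusted p = 0.0512) and on leaving out any of 7 libraries: Control replicates 1 and 3, shGATA2a replicates 1 and 3, and all 3 shGATA2b replicates, with adjusted p from 0.0664 to 0.175. Alone, shGATA2a gave 0.38 (SE 0.13, limma adjusted p = 0.079) and shGATA2b 0.36 (SE 0.13, adjusted p = 0.0906), and neither passed.

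In DU145-DR NCOA1 went from 839.5, 765.7 and 835.5 in controls to between 627.7 and 823.5 after knockdown, with a log2 difference of -0.18 (SE 0.10, limma adjusted p = 0.235). In 22Rv1-DR controls were 546.1, 460.3 and 398.5 and knockdown libraries 486.1 to 583.0, a log2 difference of 0.18 (SE 0.14, limma adjusted p = 0.656). The effect in ARCaPM-DR exceeded that in DU145-DR by 0.55 (SE 0.16, limma adjusted p = 0.0361), while the F-test over the 3 lines did not pass (adjusted p = 0.0758). That pairwise call was lost with edgeR (adjusted p = 0.0576) and on leaving out any of 10 libraries, all in DU145-DR or ARCaPM-DR: all 3 controls, shGATA2a replicate 1 and shGATA2b replicates 1 and 3 of DU145-DR, and Control replicates 1 and 3, shGATA2a replicate 3 and shGATA2b replicate 3 of ARCaPM-DR (adjusted p from 0.0513 to 0.124). The F-test passed without 22Rv1-DR Control replicate 1 or 3 or ARCaPM-DR Control replicate 2 (adjusted p from 0.0417 to 0.0499). In controls NCOA1 was highest in DU145-DR at 813.6 ± 41.5 (SD, n = 3), then ARCaPM-DR at 635.2 ± 78.5 and 22Rv1-DR at 468.3 ± 74.1. Each step passed, with log2 differences of -0.36 from DU145-DR to ARCaPM-DR (limma adjusted p = 0.0186) and 0.44 from 22Rv1-DR to ARCaPM-DR (adjusted p = 0.00384). The first was lost on leaving out Control replicate 1 or 3 of either line (adjusted p from 0.0521 to 0.093).

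NCOA2, the third p160 coactivator, was not called on knockdown in any line. The log2 differences were -0.02 (SE 0.08) in DU145-DR, 0.12 (SE 0.22) in 22Rv1-DR and 0.20 (SE 0.18) for ARCaPM-DR, with limma adjusted p of 0.881, 0.859 and 0.473. In 22Rv1-DR and ARCaPM-DR alike replicate 2 was the lowest library of every arm and, except in the ARCaPM-DR controls, replicate 3 the highest: the 22Rv1-DR controls were 634.7, 534.7 and 709.9 and the shGATA2b libraries 705.6, 488.8 and 874.4. Control means were 904.5 ± 67.5 (SD, n = 3) in DU145-DR, 688.7 ± 105.8 in ARCaPM-DR and 626.4 ± 87.9 in 22Rv1-DR. Only the ends of that order differed, by -0.54 from DU145-DR to 22Rv1-DR (SE 0.21, limma adjusted p = 0.0246), and that call was lost without DU145-DR Control replicate 3 (adjusted p = 0.0768) or 22Rv1-DR Control replicate 2 (adjusted p = 0.106).

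NCOR1, the corepressor, was lower in DU145-DR than in the other lines and was not called on knockdown. Control means were 1547 ± 190 (SD, n = 3) in DU145-DR, 3461 ± 253 in 22Rv1-DR and 3865 ± 279 for ARCaPM-DR. The first step was a log2 difference of 1.17 (SE 0.12, limma adjusted p = 3.77e-09), and the second, 0.16 (SE 0.12, adjusted p = 0.236), did not pass. On knockdown the log2 differences were -0.07 (SE 0.09) in DU145-DR, 0.10 (SE 0.14) in 22Rv1-DR and 0.07 (SE 0.09) for ARCaPM-DR, with limma adjusted p of 0.649, 0.81 and 0.627. NCOR1 has pseudogene copies, and how the authors' counting split reads between copies is not given, so its counts are uncertain to that extent. One copy, listed as C20orf191, held 45.6 to 88.3 in 22Rv1-DR controls and 0 in the controls of the other lines.

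Counted over the set, 1 of 5 members tested passed in DU145-DR (NCOA3, higher), 0 of 8 in 22Rv1-DR and 2 of 5 in ARCaPM-DR (NR3C1 and NCOA1, higher). Over all genes tested, 16.7% were called in DU145-DR (8.72% higher and 7.98% lower), 0.4% in 22Rv1-DR (0.124% higher and 0.276% lower) and 18.5% in ARCaPM-DR (9.86% higher and 8.62% lower). For shGATA2a against control the members called were 1 of 5, 0 of 8 and 1 of 5, with 16.1%, 0% and 12.8% of all genes. For shGATA2b they were 0 of 5, 0 of 8 and 1 of 5, with 5.81%, 0.00727% and 14.5%. Between hairpins 0 members were called in each line, against 0%, 0% and 0.803% of all genes. Where limma called 0 members edgeR also called 0. Without adjustment, at the same threshold, limma passed NCOA3 alone on knockdown and with either hairpin in 22Rv1-DR and with shGATA2b in DU145-DR, and between hairpins NR3C1 in ARCaPM-DR and 0 members in the other lines. With the replicate number as a block 5184 genes were called in DU145-DR in place of 2231, and 166 in 22Rv1-DR in place of 55. Between control lines 6 of 8 members were called for 22Rv1-DR against DU145-DR, 6 for ARCaPM-DR against DU145-DR and 5 for ARCaPM-DR against 22Rv1-DR, where 70.5%, 59.9% and 70.3% of all genes were. NR3C2 and PGR are in these counts and entered the fit through 22Rv1-DR.

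**Figure D4:**
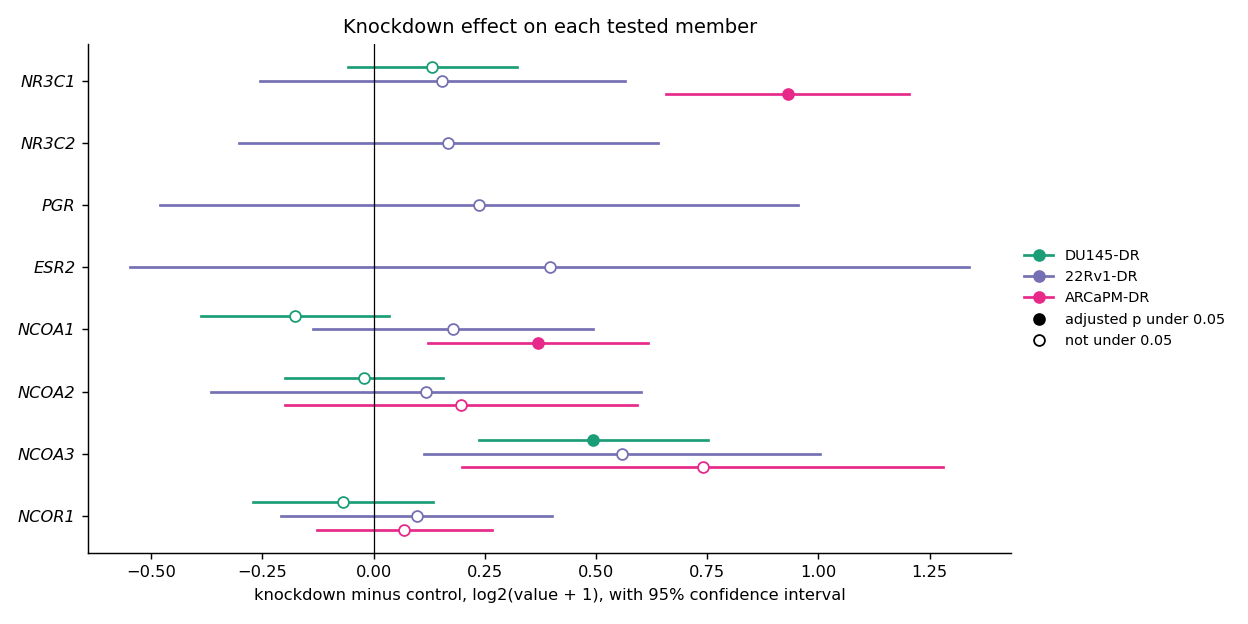
Knockdown minus control on the log2(value + 1) scale (x axis) with its 95% confidence interval from limma, for each member tested (y axis) in each line (colour). Filled points have an adjusted p under 0.05: NCOA3 in DU145-DR at 0.49, and NR3C1 at 0.93 and NCOA1 at 0.37 in ARCaPM-DR.

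Genes around the receptors were counted in lists chosen with earlier results of these data known, so the lists are a description. In 22Rv1-DR 1 gene of all 7 lists was called, where 0.4% of all genes were. The counts are small and moved with single libraries: leaving out 1 library at a time gave 1 to 4 coactivators higher in ARCaPM-DR and 1 to 3 in DU145-DR, 0 to 5 glucocorticoid response genes lower in ARCaPM-DR and 1 to 4 in DU145-DR, and 4 to 8 nuclear receptors lower in DU145-DR and 2 to 4 in ARCaPM-DR. Among 24 other coactivators tested, 2 rose and 1 fell in DU145-DR and 2 rose and 3 fell in ARCaPM-DR, with list medians of 0.03 and 0.0005 on the log2 scale against -0.002 and -0.0038 for all genes. These calls made up 12.5% and 20.8% of the list, against 16.7% and 18.5% of all genes tested. The acetyltransferase KAT5 rose in both lines, by 0.59 (SE 0.12, limma adjusted p = 0.00753) and 0.95 (SE 0.12, adjusted p = 0.000822). CREBBP, an acetyltransferase that p160 proteins recruit, fell by 0.60 in DU145-DR (limma adjusted p = 0.0118), where the RNA helicase DDX5 rose by 0.39 (adjusted p = 0.0131). In ARCaPM-DR the Mediator subunit MED1, which contacts nuclear receptors, fell by 0.80 (limma adjusted p = 0.000715) and KAT2B fell by 0.61 (adjusted p = 0.0103).

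Of 16 other corepressors, 3 rose and 1 fell in DU145-DR and 2 rose and 2 fell in ARCaPM-DR, with medians of 0.03 and -0.10. That was 25.0% of the list in each line, where 16.7% and 18.5% of all genes were called. TBL1XR1, a subunit of the NCOR complexes, rose in DU145-DR by 0.68 (limma adjusted p = 0.000991), as did NRIP1, by 0.44 (adjusted p = 0.0138). In ARCaPM-DR RCOR1 fell by 1.11 (SE 0.13, limma adjusted p = 0.000385), SIN3A fell by 0.36 (adjusted p = 0.0228) and the ligand-dependent corepressor LCOR rose by 0.74 (adjusted p = 0.00369).

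Of 17 receptor chaperones and cochaperones, 3 rose and 0 fell in DU145-DR, and 2 rose and 3 fell in ARCaPM-DR. The shares called were 17.65% and 29.41%, against 16.7% and 18.5% of all genes. In DU145-DR the genes that rose were BAG1 by 0.42 (limma adjusted p = 0.00796), HSP90AA1 by 0.46 (adjusted p = 0.00915) and FKBP4, a cochaperone of steroid receptors, by 0.28 (adjusted p = 0.0322). In ARCaPM-DR HSP90AA1 rose by 1.06 (limma adjusted p = 0.000395) while HSP90AB1 fell by 1.01 (adjusted p = 0.000255) and the cochaperone PPID fell by 0.63 (adjusted p = 0.00383). The HSP90 genes are close in sequence and have pseudogene copies, so their counts are uncertain.

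Of 15 glucocorticoid response genes tested, 1 rose and 2 fell in DU145-DR, and 1 rose and 2 fell in ARCaPM-DR. Over all genes 16.7% were called in DU145-DR and 18.5% in ARCaPM-DR, and the called share of this list was close to these. A link of these counts to the NR3C1 rise in ARCaPM-DR was not tested. The list medians were -0.20 and -0.19. With the replicate number as a block 7 fell and 1 rose in DU145-DR, and 7 fell and 1 rose in ARCaPM-DR. Counting both directions, the block called 5184 of 13362 genes tested in DU145-DR and 5885 of 13079 in ARCaPM-DR. The share of all genes that fell with the block is not given here. The phosphatase gene DUSP1 fell by 0.54 in DU145-DR (SE 0.09, limma adjusted p = 0.00295), where GLUL, the glutamine synthetase, rose by 0.35 (adjusted p = 0.0281). In ARCaPM-DR ANGPTL4 fell by 1.65 (SE 0.41, limma adjusted p = 0.0218), the transcription factor KLF9 fell by 0.74 (adjusted p = 0.0282) and RGS2 rose by 0.44 (adjusted p = 0.0455), the last not with edgeR, with no filter, or on leaving out any 1 library other than shGATA2a replicate 2 and Control replicate 3.

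Of the estrogen response genes, 2 rose and 2 fell of 12 tested in DU145-DR, and 0 rose and 2 fell of 10 in ARCaPM-DR. Over all genes 16.7% were called in DU145-DR and 18.5% in ARCaPM-DR. The called share of this list was higher than that in DU145-DR and close to it in ARCaPM-DR, on few genes. CCND1, the cyclin D gene, rose by 0.43 in DU145-DR (limma adjusted p = 0.0222) and fell by 0.32 in ARCaPM-DR (adjusted p = 0.0378). RARA, which stands in this list and among the nuclear receptors, fell by 0.62 in DU145-DR (limma adjusted p = 0.0057), and XBP1 fell by 0.30 in ARCaPM-DR (adjusted p = 0.0491). NRIP1 is in this list too. With no filter 0 of these genes fell in ARCaPM-DR, and leaving out 1 library at a time gave 0 to 3 there and 1 to 3 in DU145-DR.

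Of 27 other nuclear receptors tested in DU145-DR 8 fell and 1 rose, with a list median of -0.14, where 7.98% of all genes fell and 8.72% rose. In ARCaPM-DR 3 fell and 1 rose of 27, with a median of -0.11, where 8.62% of all genes fell and 9.86% rose. In DU145-DR NR1H2, a liver X receptor, fell by 1.08 (SE 0.17, limma adjusted p = 0.00174), PPARD fell by 0.73 (adjusted p = 0.00206) and the orphan receptor NR4A1 fell by 0.91 (adjusted p = 0.00511). In ARCaPM-DR the fatty acid receptors PPARA and PPARD fell by 1.39 (SE 0.11, limma adjusted p = 7.89e-05) and 1.0 (SE 0.17, adjusted p = 0.00308), and the orphan receptor NR2C2 rose by 0.54 (adjusted p = 0.0162). In 22Rv1-DR NR5A2 fell by 0.81 (limma adjusted p = 0.0351), the only gene called there in all 7 lists. That call was lost on leaving out any of the 9 libraries, and NR5A2 holds 2 values that are not whole reads.

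Of the steroid enzymes, 2 rose and 1 fell of 8 tested in DU145-DR, and 3 rose and 1 fell of 9 in ARCaPM-DR. These few genes gave shares of 37.5% and 44.4%, against 16.7% and 18.5% of all genes. H6PD, which supplies the cofactor for cortisol regeneration, fell in both lines, by 0.62 (limma adjusted p = 0.00336) and 0.74 (adjusted p = 0.0177). The ketosteroid reductase AKR1C3 rose in both, by 0.65 (limma adjusted p = 0.0138) and 1.48 (adjusted p = 0.024). AKR1C1 rose by 0.56 in DU145-DR (limma adjusted p = 0.0169), and in ARCaPM-DR it was at 0.95 ± 0.35 (SD, n = 3) in controls and 21.0 ± 13.5 (SD, n = 6) after knockdown. It passed the filter there through the knockdown libraries, so that a difference was built into its passing, and with a filter of 50 the steroid enzymes that rose in ARCaPM-DR were 1 in place of 3. The AKR1C genes are close copies of each other, and their counts are uncertain.

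Over the 27 libraries, after each line's mean was removed, the genes most like NR3C1 among 12176 compared were SERTAD2 (Pearson r = 0.949), FGD4 (0.911) and DPY19L1 (0.902). For NCOA3 they were APOOL (r = 0.931), UBE2G1 (0.930) and FAM3C (0.929). For NCOA1 they were LIPA (r = 0.874), IDH1 (0.829) and CHURC1 (0.820), and for NCOA2 ZNF148 (0.934), UBR2 (0.906) and ZYG11B (0.901). NCOR1 was most like CNOT1 (r = 0.829), UBN2 (0.822) and FBXO11 (0.795), and NR3C2 most like CALCOCO2 (0.718), METTL21B (0.711) and VEGFA (0.694). Among the members the highest value was 0.683, between NCOA3 and NCOA2, followed by 0.644 for NR3C1 with NCOA1 and 0.635 for NR3C1 with NCOA3. These are descriptions over libraries that share hairpins, replicate numbers and scaling, and the members' own values in a library rest on the same depth.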

How the data were processed

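Total RNA of 27 libraries had been isolated with the RNeasy Mini kit and sequenced by a standard Illumina protocol, per the labels' protocols. The submitters' processing notes name TopHat2 2.0.9 and Cufflinks 1.3.0 with hg19 (GRCh37). No source used here names the counting program, the scaling or whether strand was used, so reads of overlapping antisense genes cannot be told apart. The authors deposited 1 table of 23228 symbols whose unit is a normalised signal: in each library values are whole multiples of a single step, as counts divided by a size factor are. Among the 433407 non-zero values 99.954% were whole to a tolerance of 0.005 reads, and 199 values in 58 genes were not. All 27 per-sample columns were used. The depth ran from 3.44 to 19.40 M reads, and intervals on single reads cover counting error only.

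Libraries were grouped by title. Each line was fitted alone in limma 3.58.1 under R 4.3.3, after log2(value + 1) and with the trend option, over genes that reached 10 in 3 or more libraries. That scale understates the change of low genes. A joint fit of 27 libraries and 9 group means gave control differences between lines, the average knockdown and its difference between lines. Knockdown is the mean of both hairpins minus control. Adjusted p-values are Benjamini-Hochberg over all genes tested in a comparison, with a threshold of 0.05. The fits were tested on simulated data. Alternatives were a pseudocount of 0.1, no filter, a filter of 50, median of ratios scaling, edgeR 4.0.16 (quasi-likelihood, TMM) on the recovered reads, the replicate number as a block, the 58 genes left out, and leaving out each library.

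The members and the gene lists were chosen with earlier results of these data known. Named genes are all members and GATA2, up to 3 genes per list and line with the smallest adjusted p and a mean of at least 50, and the 3 genes most like each member with a mean of at least 50. C20orf191 and the marker genes stand outside that rule. Some genes that the rule or the marker lists hold are not reported here.

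The labels do not say what a replicate number marks. Deviations from group means of same-numbered libraries correlated at 0.275 or more over the 9 pairs in DU145-DR (median 0.393), at 0.211 or more in 22Rv1-DR (median 0.409), and at 0.0559 or more in ARCaPM-DR (median 0.583). A line's numbers were taken to pair its libraries where the lowest of these values reached 0.1, so in DU145-DR and 22Rv1-DR only. ARCaPM-DR missed that limit on its lowest pair, though its median was the highest, so pairing there is not settled. The main fits hold no block, so differences between replicate numbers stay in their error. Replicates of every group differed by more than counting noise (chi-square per degree of freedom from 6.37 to 103.7), so no library was counted as a repeat deposit, which does not show that cultures were separate. Promoter windows come from RefSeq, GRCh38.p14.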

Additional observations from a re-analysis of the deposited data

Results flagged for a closer look

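The knockdown effect on NR3C1 was larger in ARCaPM-DR than in DU145-DR by 0.80 on the log2 scale (limma in the joint fit, adjusted p = 0.0125), where 7.13% of all genes differed. It was larger in ARCaPM-DR than in 22Rv1-DR by 0.78 (limma, adjusted p = 0.0256), where 3.39% of all genes differed. The effect on NCOA1 was larger in ARCaPM-DR than in DU145-DR by 0.55 (limma, adjusted p = 0.0361), a call that edgeR did not make (adjusted p = 0.0576). All 3 stand here because the test of that pair of lines passed, while for NCOA1 the F-test over the 3 lines did not (adjusted p = 0.0758) and the call was lost on leaving out any of 10 libraries.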

How the results depend on the processing

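For ARCaPM-DR against DU145-DR controls, 5 members in place of 6 were called with a pseudocount of 0.1, with no filter and with edgeR, each time without NR3C2, and for 22Rv1-DR against DU145-DR controls 5 in place of 6 with a pseudocount of 0.1, without PGR. A filter of 50 tested fewer members and gave 5, 5 and 4 for the control comparisons in place of 6, 6 and 5. With no filter, 1 member was called on knockdown in ARCaPM-DR in place of 2. With the replicate number as a block, members called were 3 in place of 2 on knockdown in ARCaPM-DR, 1 in place of 0 for shGATA2b in DU145-DR, 3 in place of 1 for shGATA2a and for shGATA2b in ARCaPM-DR, 2 in place of 0 between the hairpins there, and 2 in place of 1 for a difference between lines. In ARCaPM-DR, where pairing by number is not settled, NCOA3 then had limma adjusted p = 7.21e-07 on knockdown. There NCOA1 and NCOA3 passed with each hairpin, and between the hairpins NR3C1 had 0.0292 and NCOA3 0.0481. NCOA1 passed in the F-test between lines (adjusted p = 0.0144). The block changed no other call of a member. It was planned for the comparisons of controls between lines too and was not run there, because a block within lines takes up the difference between lines.

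Leaving out single libraries gave 0 to 1 members on knockdown and for shGATA2a in DU145-DR, 1 to 3 on knockdown and 1 to 2 for shGATA2b in ARCaPM-DR, and 0 to 2 for a difference between lines. These differences turned direction, and none of them was called (0): on knockdown NCOA2 (-0.0717 to 0.0346) and NCOR1 (-0.155 to 0.0210) in DU145-DR and ESR2 in 22Rv1-DR (-0.11 to 0.69), NCOA1 between the hairpins in ARCaPM-DR (-0.0646 to 0.0467), NCOA3 (-0.229 to 0.0171) and ESR2 (-0.18 to 0.63) for 22Rv1-DR against DU145-DR controls, ESR2 for ARCaPM-DR against 22Rv1-DR controls (-0.31 to 0.50), and the effect in 22Rv1-DR minus DU145-DR for NR3C1 (-0.0599 to 0.127) and NCOA3 (-0.0568 to 0.189).

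Counts over all genes moved as well. On knockdown, leaving out a library gave 857 to 2440 in DU145-DR (2231 with all), 0 to 37 in 22Rv1-DR (55) and 1179 to 3545 in ARCaPM-DR (2418). Leaving out the 58 genes gave 1 in 22Rv1-DR. The block gave 5885 in ARCaPM-DR, 5535 for the average (2809) and 4003 for a difference between lines (1071). For the lists in ARCaPM-DR the block gave 8 nuclear receptors lower and 7 higher. In DU145-DR it gave 4 coactivators higher and 4 lower, 6 chaperones higher and 2 lower, 3 nuclear receptors higher and 9 lower, and 4 estrogen response genes lower. The cause of these changes was not tested. Depth limits ESR1, ESR2 and PGR.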
